A study of Mus musculus with 8 samples.

Results

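Oxtr, the gene of the oxytocin receptor, and 6 genes of the myoepithelial contractile programme (Acta2, Myh11, Mylk, Cnn1, Tagln and Trp63) were followed in 16 mouse mammary tumours. Members were found by matching the accession of each non-control array probe to these 7 gene symbols, which gave 8 probes among 55681. All 7 genes were among the 14128 that could be tested, and all 8 probes were well above background in 16 of 16 tumours. The genes were chosen by name, not by a threshold on values, but with earlier results of these data known.

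The tumours grew as orthotopic pieces of MMTV-PyMT mammary carcinoma, in which a mammary tumour virus promoter drives the polyoma middle T oncogene, in wild-type FVB mice. Some hosts received RANK-Fc, a soluble decoy receptor for RANK ligand, intraperitoneally at 10 mg/kg, 3 times per week. The 6 groups were passage 2 with both neoadjuvant and adjuvant RANK-Fc (P2 prior and current, 3 tumours), passage 2 with the neoadjuvant treatment (P2 prior, 3 tumours), passage 2 with the adjuvant treatment (P2 current, 3 tumours), untreated passage 2 (P2 control, 2 tumours), RANK-Fc in passage 1 (P1 RANK-Fc, labelled adjuvant, 3 tumours) and no treatment in passage 1 (P1 control, 2 tumours). That the neoadjuvant treatment fell in passage 1 is a reading of the group codes. Each tumour's label carries its own code, read here as an animal number, and the labels do not tell which tumour of passage 1 gave rise to which of passage 2. RNA came from tumour fragments, so host stroma and fat were measured together with tumour cells. Each tumour was hybridised in 1 colour, Cy5 or Cy3, of 1 of 8 arrays, and levels are normalised log2 intensities, which can be compared between tumours for 1 probe but not between probes.

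Myoepithelial cells form the basal layer of the mammary duct and alveolus. Oxytocin released at suckling binds its receptor on these cells, which signals through Gq and phospholipase C to calcium release, and calcium-calmodulin then switches on myosin light chain kinase, so that actin and myosin contract and milk is ejected. Smooth muscle of vessels, pericytes and activated fibroblasts share much of the contractile set, so Acta2 or Tagln in a whole tumour does not mark 1 cell type. PyMT carcinomas are mainly luminal, and the myoepithelial layer is typically lost as they progress. In whole-tumour RNA, fewer cells of a type and less RNA per cell cannot be told apart.

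The proximal promoters are shown for the gene that differed between passages (Oxtr), the member that tracked it best (Cnn1) and the member with a match to the serum response factor motif (Acta2). Each covers the 250 bases before and 50 bases after the gene start in RefSeq (GRCm38.p6), read on the gene's own strand. The promoter table held 4 of the 7 members, Mylk being the fourth. Oxtr lies at chr6:112489776-112490075 on the minus strand, Cnn1 at chr9:22099003-22099302 on the plus strand and Acta2 at chr19:34255324-34255623 on the minus strand. Capitals mark matches to the CArG box, the motif CC, then 6 letters that are A or T, then GG, with at most 1 deviation among the 6. The motif reads the same way on both strands.
Oxtr: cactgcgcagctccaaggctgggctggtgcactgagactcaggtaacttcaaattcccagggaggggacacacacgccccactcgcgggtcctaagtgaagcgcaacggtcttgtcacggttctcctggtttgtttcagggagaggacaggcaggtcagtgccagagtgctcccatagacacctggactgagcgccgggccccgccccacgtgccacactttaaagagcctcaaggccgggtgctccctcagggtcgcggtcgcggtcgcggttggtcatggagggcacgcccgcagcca
Cnn1: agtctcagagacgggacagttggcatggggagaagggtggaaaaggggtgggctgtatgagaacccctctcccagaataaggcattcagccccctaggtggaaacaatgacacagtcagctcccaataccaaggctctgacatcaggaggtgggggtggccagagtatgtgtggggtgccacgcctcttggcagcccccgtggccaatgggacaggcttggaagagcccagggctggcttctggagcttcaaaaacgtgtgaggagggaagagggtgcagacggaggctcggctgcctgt
Acta2: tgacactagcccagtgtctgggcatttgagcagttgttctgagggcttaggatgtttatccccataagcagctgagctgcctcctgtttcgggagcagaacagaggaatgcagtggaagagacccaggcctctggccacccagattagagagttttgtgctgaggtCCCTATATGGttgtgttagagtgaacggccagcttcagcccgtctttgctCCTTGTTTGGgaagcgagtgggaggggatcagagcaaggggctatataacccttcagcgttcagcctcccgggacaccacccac
No promoter of the 4 held a perfect CArG box. Acta2 held 2 matches with 1 deviation, CCCTATATGG at -84 to -75 and CCTTGTTTGG at -34 to -25 relative to the start, and the other 3 held none. Among 32851 promoters of the same length, 1.63% held a perfect box and 10.0% held either form. These are letter matches, and no binding was measured.

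Oxtr, the receptor itself, was low in passage 2 tumours without prior RANK-Fc and high in passage 1. In passage 2 its log2 intensity was 7.80, 8.32 and 9.35 with prior and current RANK-Fc, 8.50, 8.66 and 8.76 with prior RANK-Fc, 8.06, 7.33 and 7.66 with current RANK-Fc, and 7.54 and 7.25 in controls. In passage 1 it was 9.28, 9.34 and 9.49 in RANK-Fc tumours, against 9.76 and 9.13 in controls. Group means were 8.49 ± 0.79 in P2 prior and current (SD, n = 3), 8.64 ± 0.13 in P2 prior (n = 3), 7.68 ± 0.36 in P2 current (n = 3), 7.40 ± 0.21 in P2 control (n = 2), 9.37 ± 0.11 in P1 RANK-Fc (n = 3) and 9.45 ± 0.45 in P1 control (n = 2). By mean the order was P2 control lowest, then P2 current, P2 prior and current, P2 prior, P1 RANK-Fc and P1 control. Neighbours in this order overlapped, except that P2 prior lay wholly below P1 RANK-Fc. Across the 16 tumours Oxtr spanned 2.51 on the log2 scale, a wider range than 96.9% of tested genes had (median range 0.75).

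Acta2, smooth muscle actin and the filament on which myosin pulls, stood apart in 1 tumour. In passage 2 it was 11.59, 11.77 and 11.86 with prior and current RANK-Fc, 11.56, 11.04 and 11.48 with prior RANK-Fc, 11.39, 11.58 and 12.83 with current RANK-Fc, and 11.37 and 11.30 in controls. Levels in passage 1 were 12.12, 11.49 and 11.61 in RANK-Fc tumours and 11.78 and 11.25 in controls. The third P2 current tumour was the highest of the 16, and both passage 1 groups overlapped P2 prior, P2 current and P2 prior and current.

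Tagln, or transgelin, an actin-binding protein of smooth muscle that fibroblasts also make, stood out in the same tumour. In passage 2 it was 11.47, 11.48 and 11.38 with prior and current RANK-Fc, 11.68, 11.22 and 11.50 with prior RANK-Fc, 11.62, 11.57 and 13.28 with current RANK-Fc, and 11.50 and 11.43 in controls. Passage 1 levels were 11.81, 11.46 and 11.78 in RANK-Fc tumours, against 11.62 and 11.06 in controls. Without the value of 13.28, no tumour exceeded 11.81. Acta2 and Tagln had group means from 11.34 to 12.16, both highest in P2 current, where the SD was 0.79 for Acta2 and 0.97 for Tagln (n = 3).

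Myh11, the smooth muscle myosin heavy chain, varied as much within groups as between them. In passage 2 it was 6.995, 6.68 and 7.57 with prior and current RANK-Fc, 6.72, 6.57 and 6.70 with prior RANK-Fc, 6.74, 7.08 and 7.004 with current RANK-Fc, and 7.09 and 6.68 in controls. In passage 1 it was 7.95, 6.61 and 7.29 in RANK-Fc tumours, against 7.35 and 6.76 in controls. High values, above 7.5, came from 1 tumour of P2 prior and current and 1 of P1 RANK-Fc, so that no group was high as a whole.

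Mylk, myosin light chain kinase, the enzyme that calcium-calmodulin activates, varied least, over 0.46 on the log2 scale, a wider range than that of 11.9% of genes. In passage 2 it was 6.98, 6.89 and 7.24 with prior and current RANK-Fc, 7.06, 7.06 and 7.22 with prior RANK-Fc, 6.91, 6.98 and 7.13 with current RANK-Fc, and 7.12 and 7.04 in controls. Passage 1 levels were 7.35, 6.93 and 7.16 in RANK-Fc tumours, against 7.33 and 6.98 in controls. Group means ran from 7.01 ± 0.11 in P2 current (SD, n = 3) to 7.16 ± 0.25 in P1 control (n = 2), and all groups overlapped. The Mylk and Myh11 probes were dim, with mean log2 intensities of 7.09 and 6.99 over the 16 tumours. At such levels the offset of 50 added in background correction narrows log2 ranges.

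Cnn1, calponin 1, which binds actin and restrains the myosin ATPase, had the widest range of the members, 3.43, wider than that of 98.8% of genes. In passage 2 it was 8.60, 8.08 and 10.58 with prior and current RANK-Fc, 7.85, 8.10 and 8.11 with prior RANK-Fc, 7.90, 7.59 and 8.88 with current RANK-Fc, and 7.85 and 7.16 in controls. Levels in passage 1 were 10.14, 8.22 and 8.84 in RANK-Fc tumours, against 9.30 and 8.27 in controls. Its highest value was in the third P2 prior and current tumour, which also had the highest Oxtr of passage 2 (9.35).

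Trp63, the p63 transcription factor that maintains basal and myoepithelial identity, was read by 2 probes that did not track each other. The brighter, A_55_P2161055, stands for the gene. In passage 2 it gave 12.23, 12.17 and 11.53 with prior and current RANK-Fc, 12.14, 12.04 and 12.19 with prior RANK-Fc, 11.69, 12.95 and 11.98 with current RANK-Fc, and 12.57 and 11.40 in controls. In passage 1 it gave 12.08, 11.55 and 11.97 in RANK-Fc tumours, against 12.08 and 11.82 in controls. The groups overlapped throughout, with means between 11.86 ± 0.28 in P1 RANK-Fc (SD, n = 3) and 12.20 ± 0.66 in P2 current (n = 3). The dimmer, A_51_P216550, gave 8.19, 7.88 and 7.73 in P2 prior and current, 7.82, 8.48 and 8.96 in P2 prior, 9.19, 7.59 and 9.07 in P2 current, 8.35 and 8.57 in P2 control, 8.71, 8.47 and 8.61 in P1 RANK-Fc, and 8.98 and 8.65 in P1 control. It had means between 7.93 ± 0.23 in P2 prior and current (n = 3) and 8.82 ± 0.23 in P1 control (n = 2). Over the 16 tumours they correlated at r = -0.34 (permutation p = 0.196; rho = -0.29, p = 0.269; r = -0.31 without the 2 tumours farthest from the median). The brighter probe followed the dye: every Cy5 value (12.08 to 12.95) lay above every Cy3 value (11.40 to 12.04), a difference of 0.61 ± 0.12 (SE, limma, adjusted p = 0.0200). A dye effect passed the test for 3.9% of genes, and for no other member (adjusted p from 0.399 to 0.967). Trp63 levels between tumours of different dye are therefore not comparable without the fitted dye term.

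**Figure D1:**
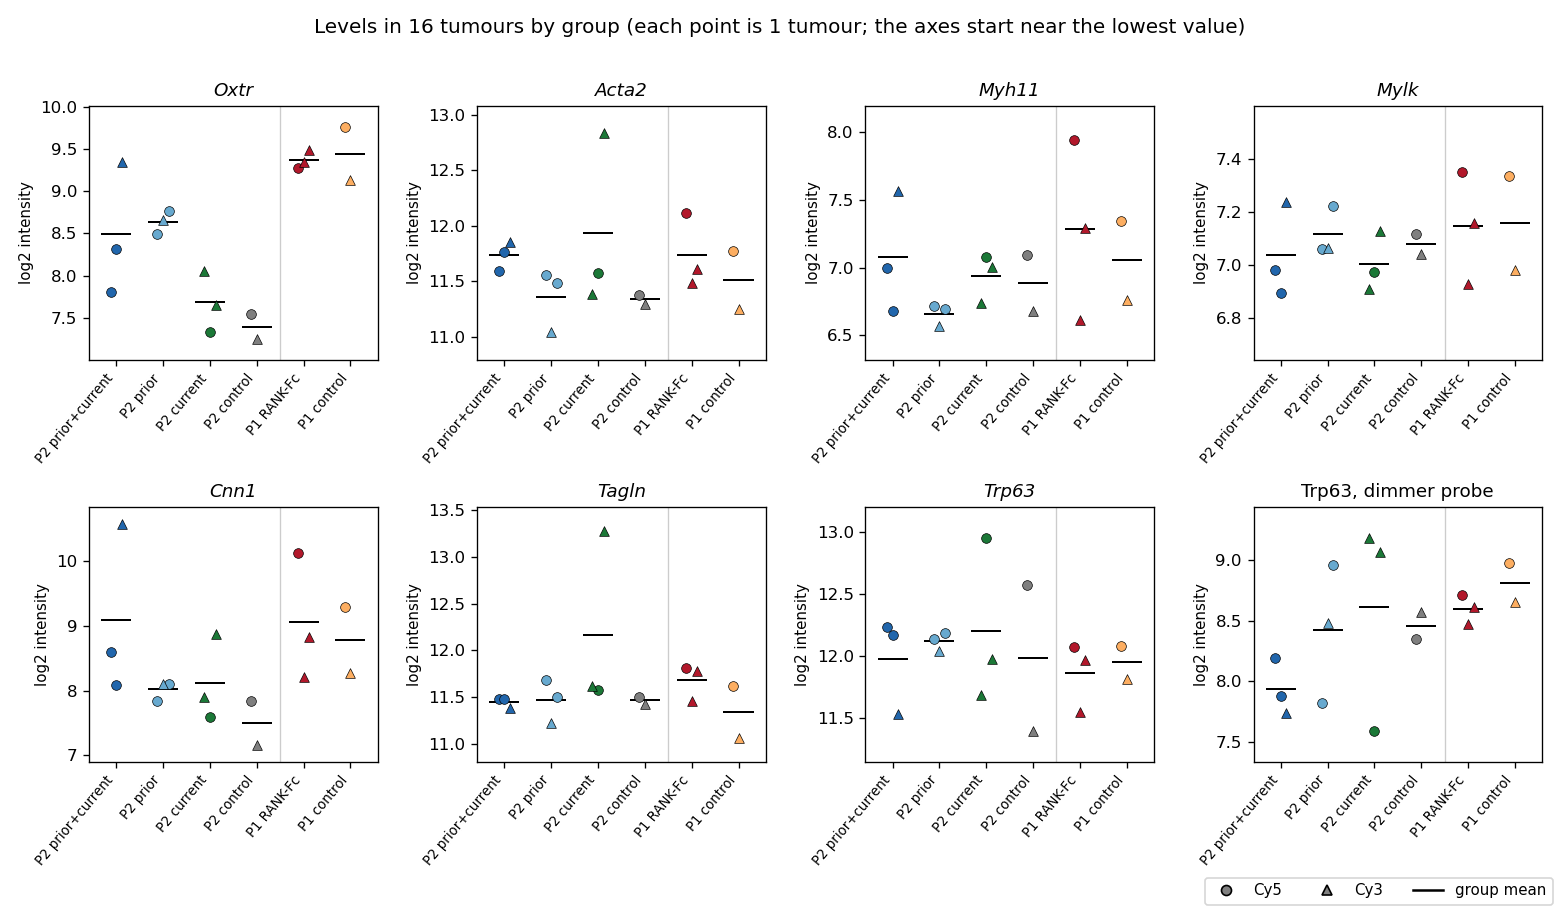
Log2 intensity of each member in the 16 tumours by group, with the dimmer Trp63 probe as the last panel; points are tumours (circles Cy5, triangles Cy3) and bars are group means. Oxtr lies between 7.25 and 8.06 in P2 current and P2 control and between 9.13 and 9.76 in passage 1, while Acta2 and Tagln each have 1 high P2 current tumour.

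Differences were tested in 1 limma fit over the 14128 genes, with 6 group means and dye, adjusted by Benjamini-Hochberg over all genes of a comparison, with adjusted p under 0.05 as the threshold. The labels do not give the donors of passage 2 tumours, so the fit takes no account of any shared donor. The first comparison set passage 2 without prior RANK-Fc (current and control) against passage 1 (RANK-Fc and control). Oxtr fell by 1.85 on the log2 scale in passage 2 (difference -1.85 ± 0.23, SE; 95% interval -2.35 to -1.35; 0.278-fold; adjusted p = 0.000468). All 5 passage 2 tumours, from 7.25 to 8.06, were below all 5 of passage 1, from 9.13 to 9.76. The background in this comparison was wide: 12% of all genes passed, 7.72% of all genes as lower in passage 2, and 8.25% were below without overlap. Oxtr was thus 1 of many, and 81 genes had a smaller p.

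The other 6 members did not pass between the passages. Cnn1 had a difference of -1.11 ± 0.51 (SE; 95% interval -2.22 to -0.01; adjusted p = 0.184), with values of 7.16 to 8.88 in passage 2 and 8.22 to 10.14 in passage 1. Acta2 differed by 0.02 ± 0.26, with an interval of -0.54 to 0.57. Without the third P2 current tumour its difference was -0.25 ± 0.13 (adjusted p = 0.237). Tagln differed by 0.35 ± 0.29 (interval -0.27 to 0.97), and by 0.04 ± 0.11 without that tumour. Myh11 differed by -0.26 ± 0.23, Mylk by -0.11 ± 0.11 and Trp63 by 0.17 ± 0.17 (adjusted p from 0.521 to 0.571), and the dimmer Trp63 probe by -0.10 ± 0.29.

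Prior RANK-Fc was compared next, averaging both passage 2 groups with it against both without it. Oxtr had a difference of 1.04 ± 0.22 (SE; 95% interval 0.57 to 1.51; 2.06-fold), with an adjusted p of 0.0653 that missed the threshold. The 6 tumours with prior RANK-Fc had values of 7.80 to 9.35, against 7.25 to 8.06 in the 5 without, so the sets overlapped through the P2 prior and current tumour at 7.80. Of all genes 0.347% passed, 0.269% as higher, and 84 genes had a smaller p than Oxtr. Oxtr passed in 3 of 9 other processing settings, with adjusted p from 0.0396 to 0.144 over the 9. P2 prior alone differed from P2 control by 1.19 ± 0.31 (adjusted p = 0.258; 0.00708% of genes passed), and P2 prior and current by 1.13 ± 0.32 (adjusted p = 0.283; 0.0708% passed). Without the third P2 prior and current tumour the last difference was 0.68 ± 0.26 (adjusted p = 0.690). These comparisons share the P2 control tumours.

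The contractile genes had no call with prior RANK-Fc. Averaged over both backgrounds, Cnn1 differed by 0.68 ± 0.48 (adjusted p = 0.530), Tagln by -0.43 ± 0.27, Trp63 by -0.19 ± 0.16, Acta2 by -0.17 ± 0.24, Myh11 by -0.11 ± 0.22 and Mylk by 0.01 ± 0.10 (adjusted p from 0.470 to 0.982). Without the third P2 current tumour, Acta2 differed by 0.11 ± 0.12 and Tagln by -0.11 ± 0.10. Cnn1 differed by 0.16 ± 0.36 without the third P2 prior and current tumour. The difference of Cnn1 between P2 prior and current and P2 control was 1.53 ± 0.71 (adjusted p = 0.567), and 0.50 ± 0.56 without the P2 prior and current tumour at 10.58, a single value.

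Current RANK-Fc was averaged over passage 1, passage 2 without prior treatment and passage 2 with it. Oxtr differed by -0.01 ± 0.17 (95% interval -0.39 to 0.36; adjusted p = 0.995). Acta2 differed by 0.37 ± 0.19, Cnn1 by 0.63 ± 0.38, Tagln by 0.30 ± 0.22, Myh11 by 0.27 ± 0.18, Trp63 by 0.13 ± 0.13 and Mylk by -0.05 ± 0.08 (adjusted p from 0.805 to 0.973). The difference was 0.24 ± 0.09 for Acta2 and 0.15 ± 0.08 for Tagln without the third P2 current tumour, and without the third P2 prior and current tumour it was 0.35 ± 0.28 for Cnn1 (adjusted p from 0.728 to 0.879). No gene at all passed in this comparison (0%), where 916 of 14128 genes had an unadjusted p under 0.05 in limma. In passage 1 alone Oxtr differed by -0.21 ± 0.31, and in passage 2 without prior treatment by 0.24 ± 0.31. There too 0% of genes passed in limma, with 217 and 550 genes at an unadjusted p under 0.05. In passage 2 Tagln differed by 0.61 ± 0.38 and Acta2 by 0.54 ± 0.34, and by 0.10 ± 0.15 and 0.10 ± 0.17 without the third P2 current tumour. The interaction term (whether the current treatment acted differently after a prior one) was -0.30 ± 0.40 for Oxtr (adjusted p = 0.927), and no gene passed it (0%; 929 at an unadjusted p under 0.05).

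**Figure D2:**
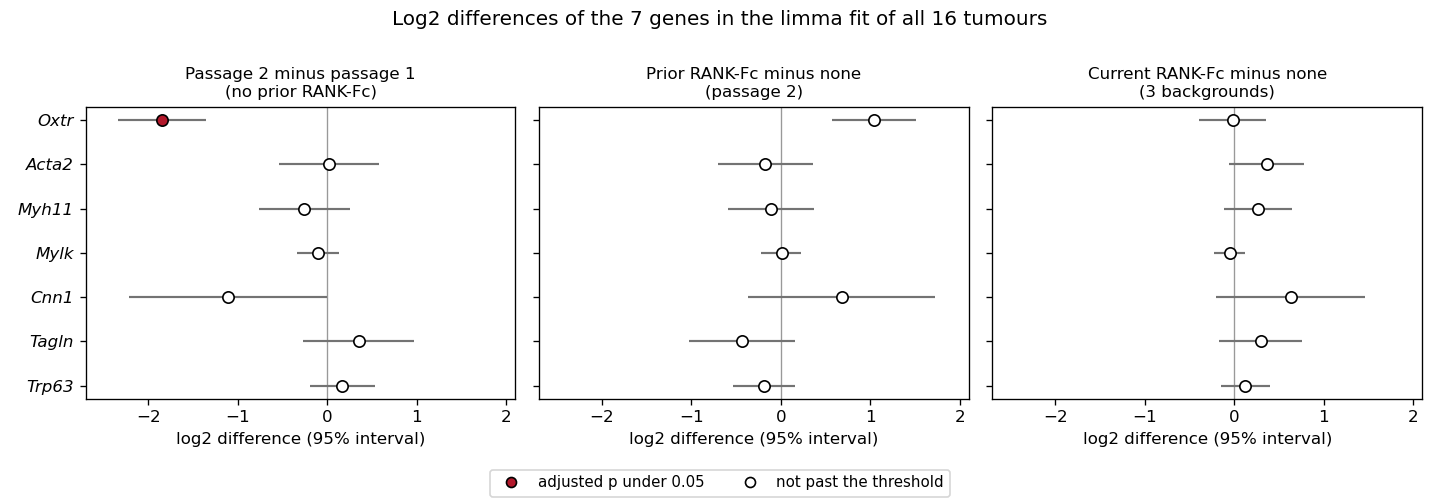
Log2 differences of the 7 genes with 95% intervals for passage 2 against passage 1, prior RANK-Fc against none and current RANK-Fc against none; filled points pass at adjusted p under 0.05. Oxtr between passages (-1.85) is the single filled point, and Oxtr with prior RANK-Fc (1.04) has an interval above 0 but does not pass over all genes.

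Whether Oxtr moved with the contractile genes was asked over the 16 tumours, with permutation tests adjusted over the 6 pairs. Tumours of a group and of an array are not independent, which these p-values do not take into account. Cnn1 tracked Oxtr, with r = 0.63 (permutation p = 0.00712, adjusted 0.0427) and rho = 0.73 (p = 0.00203, adjusted 0.0122), and r = 0.50 without the 2 tumours farthest from the Oxtr median. Leaving out each tumour in turn gave r from 0.57 to 0.70, and the adjusted p passed in 6 of 16 cases. It did not pass (adjusted permutation p from 0.0506 to 0.1002) without P2 prior and current tumour 2 or 3, P2 prior tumour 2, P2 current tumour 1 or 2, either P2 control, P1 RANK-Fc tumour 1 or 3, or P1 control tumour 1. Of all genes 8.3% correlated more highly with Oxtr than Cnn1 did.

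The other members did not pass. Mylk had r = 0.48 (adjusted permutation p = 0.191), Myh11 0.35 (0.297), Acta2 0.01 (0.972), Tagln -0.23 (0.574) and Trp63 -0.34 (0.297). Spearman's rho was 0.47, 0.28, 0.29, -0.01 and -0.30 for these 5 in the same order (adjusted permutation p from 0.212 to 0.969). Without the 2 tumours farthest from the Oxtr median, r was 0.45 for Mylk, 0.36 for Myh11, -0.12 for Acta2, -0.35 for Tagln and -0.49 for Trp63. Without the third P2 current tumour, r was 0.38 for Acta2 and 0.08 for Tagln (adjusted permutation p = 0.219 and 0.792). Trp63 was read here by its brighter probe, and the dimmer probe alone was not set against Oxtr.

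Within the 11 tumours of passage 2, Cnn1 had r = 0.64 (permutation p = 0.0255, adjusted 0.153), and r = -0.03 without the 2 tumours farthest from the Oxtr median, so that the relation there rests on those tumours. For the other 5 members r was between -0.32 and 0.45 in passage 2 (adjusted permutation p from 0.483 to 0.875). Without the 2 farthest tumours, r for Myh11 was -0.94, against 0.14 with them, and for Mylk 0.22, against 0.45. For Acta2, Tagln and Trp63 it was -0.37, -0.35 and -0.54. Passage 1 held 5 tumours, too few for a correlation. With 1 tumour per array, the 8 Cy5 tumours gave r = 0.74 for Cnn1 (exact p = 0.0322, adjusted 0.0645), and the 8 Cy3 tumours gave 0.54 (exact p = 0.164, adjusted 0.694). Mylk had r = 0.77 in Cy5 and 0.18 in Cy3, and Trp63 had -0.79 in Cy5 and 0.16 in Cy3 (adjusted exact p = 0.0645, 0.694, 0.0645 and 0.694). By rho, Trp63 in Cy5 was the single relation that passed in either colour (rho = -0.90, adjusted exact p = 0.0274), and in Cy3 its rho was 0.05 (adjusted exact p = 0.935). This relation rests on the brighter Trp63 probe, which the dimmer probe did not track, so it cannot be taken as that of the gene. For Acta2 r was 0.63 in Cy5 and -0.22 in Cy3, for Tagln 0.54 and -0.43, and for Myh11 0.41 and 0.38. With the fitted dye effect removed, Cnn1 had r = 0.64 over all tumours (adjusted permutation p = 0.0454), and no other member passed. As a description, deviations from the group and dye fit correlated with those of Oxtr at 0.65 for Cnn1, 0.63 for Mylk, 0.55 for Myh11, 0.20 for Acta2, 0.04 for Tagln and -0.25 for Trp63 (n = 16, with 9 residual degrees of freedom). The third P2 prior and current tumour was the highest of its group for Oxtr, Cnn1, Mylk, Myh11 and Acta2, and the lowest for Tagln and Trp63. Correlations of the deviations were not computed without that tumour.

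**Figure D3:**
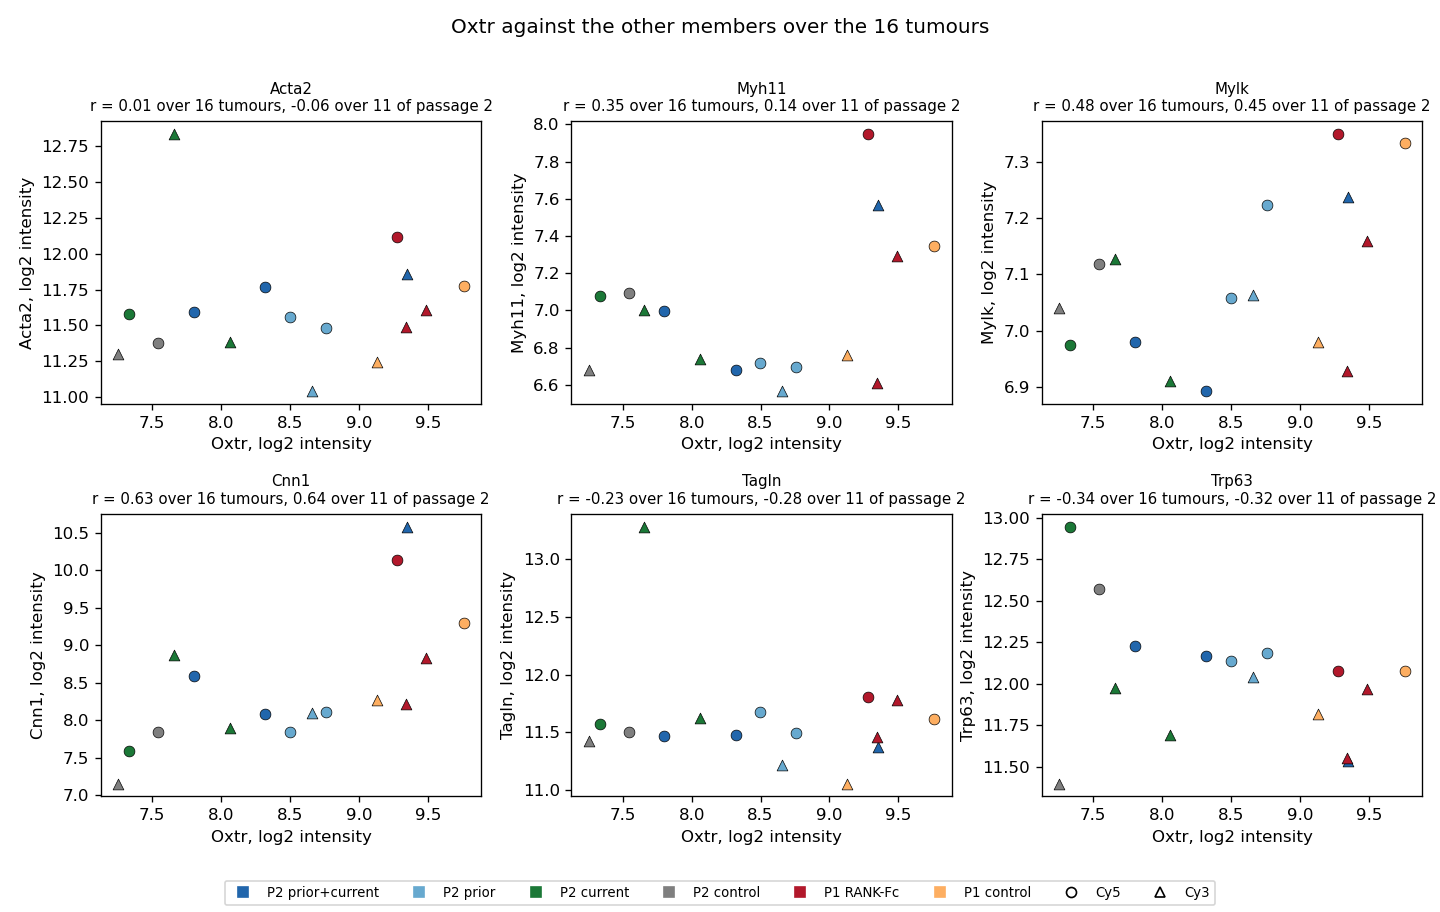
Oxtr log2 intensity (x axes) against each other member (y axes) in the 16 tumours, coloured by group, with circles for Cy5 and triangles for Cy3. Cnn1 rises with Oxtr at r = 0.63, while r is 0.01 for Acta2 and -0.23 for Tagln, and 0.38 and 0.08 without the third P2 current tumour.

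The 6 other members were also set against each other. Of 15 pairs, 4 passed over the 16 tumours: Acta2 with Tagln (r = 0.87, adjusted permutation p = 0.00278), Myh11 with Cnn1 (0.82, 0.00278), Myh11 with Mylk (0.74, 0.00455) and Mylk with Cnn1 (0.69, 0.0124). By Spearman's rho these were 0.58, 0.56, 0.64 and 0.61 (adjusted permutation p from 0.0510 to 0.0686). The highest rho of the 15 pairs was that of Acta2 with Cnn1, at 0.66, and Acta2 with Myh11 had 0.61 (adjusted permutation p = 0.0510 each), so that no pair passed by rho. With the dye effect removed, Acta2 with Cnn1 passed by rho (0.73, adjusted permutation p = 0.0293). Without the 2 tumours farthest from the median of the first gene, r of the 4 pairs was 0.50, 0.58, 0.56 and 0.52. Trp63 had r between -0.21 and 0.12 with the 5 others. Without the third P2 current tumour, Acta2 and Tagln had r = 0.62, and Acta2 also passed with Myh11 (0.78) and Cnn1 (0.72). Tagln with Cnn1 had r = 0.19 with and 0.20 without that tumour. Within passage 2 no pair passed (adjusted permutation p from 0.163 upward), with r = 0.89 for Acta2 with Tagln and 0.75 for Myh11 with Cnn1.

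Markers of other cell types were set beside the members. Luminal epithelial markers (10 of 10 genes) were above background in all 16 tumours, with a mean level of 12.24 to 12.54, and basal and myoepithelial markers (25 of 28) likewise. Fibroblast markers (14 of 14) were present throughout. Their mean was 10.24 to 10.74 in P2 prior and current, 10.40 to 11.72 in P2 prior, 10.46 to 12.62 in P2 current, 10.03 to 10.62 in P2 control, 11.23 to 11.66 in P1 RANK-Fc and 11.54 to 11.71 in P1 control. The value of 12.62 belonged to the third P2 current tumour, the one with Acta2 at 12.83 and Tagln at 13.28, and its means of basal (10.30), pericyte (8.60) and endothelial markers (8.64) were also the highest of the 16. Its skeletal muscle mean of 8.46 was the next to highest. Skeletal muscle markers were dim, with 2 of 10 genes above background in all tumours, and their highest mean was 9.23 in the first P2 prior tumour, where Acta2 was 11.56 and Tagln 11.68. The part of stroma or muscle in the members' levels, or of stroma in the basal mean, was not tested.

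Over the 49 relations of a member with a marker list, none passed adjustment. Tagln had r = 0.63 with the fibroblast mean and 0.67 with the endothelial mean, and Acta2 had 0.63 with both (adjusted permutation p from 0.0637 to 0.0654). With the basal and myoepithelial mean r was 0.73 for Tagln and 0.66 for Acta2 (adjusted permutation p = 0.0654 each). Their rho with the fibroblast mean was 0.55 for Tagln and 0.43 for Acta2. Without the third P2 current tumour r with the fibroblast mean was 0.27 and 0.33, and with the basal mean 0.30 and 0.25. With the adipocyte mean Myh11 had r = 0.76 (adjusted permutation p = 0.0637, rho = 0.75), Mylk 0.65 and Cnn1 0.64 (adjusted permutation p = 0.0654 each, rho = 0.42 each). Without the 2 tumours farthest from the median of that mean, r was 0.68 for Myh11, 0.24 for Mylk and 0.49 for Cnn1. Adipocyte markers (5 of 8 above background in all tumours) had means from 7.30 in a P2 prior tumour to 10.19 in a P1 control. Oxtr had r = 0.41 with fibroblast markers and 0.35 with basal and myoepithelial markers (adjusted permutation p = 0.376 and 0.525; rho = 0.47 and 0.54), and 0.74 and 0.79 without the third P2 current tumour. With pericyte markers Oxtr had r = -0.56 (adjusted permutation p = 0.120). Between passages, 13 of 14 fibroblast genes and 6 of 7 adipocyte genes were lower in passage 2 in value, with medians of -0.77 and -0.84 against -0.002 over all genes. None of these passed in limma. At an unadjusted p under 0.05 in limma were 5 of 14 fibroblast genes, all lower. Of 7 adipocyte genes 4 were lower and 1 higher at that level. Of all genes 26.6% reached it in either direction and 15.6% as lower. Whether these lists bear on the fall of Oxtr was not tested.

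**Figure D4:**
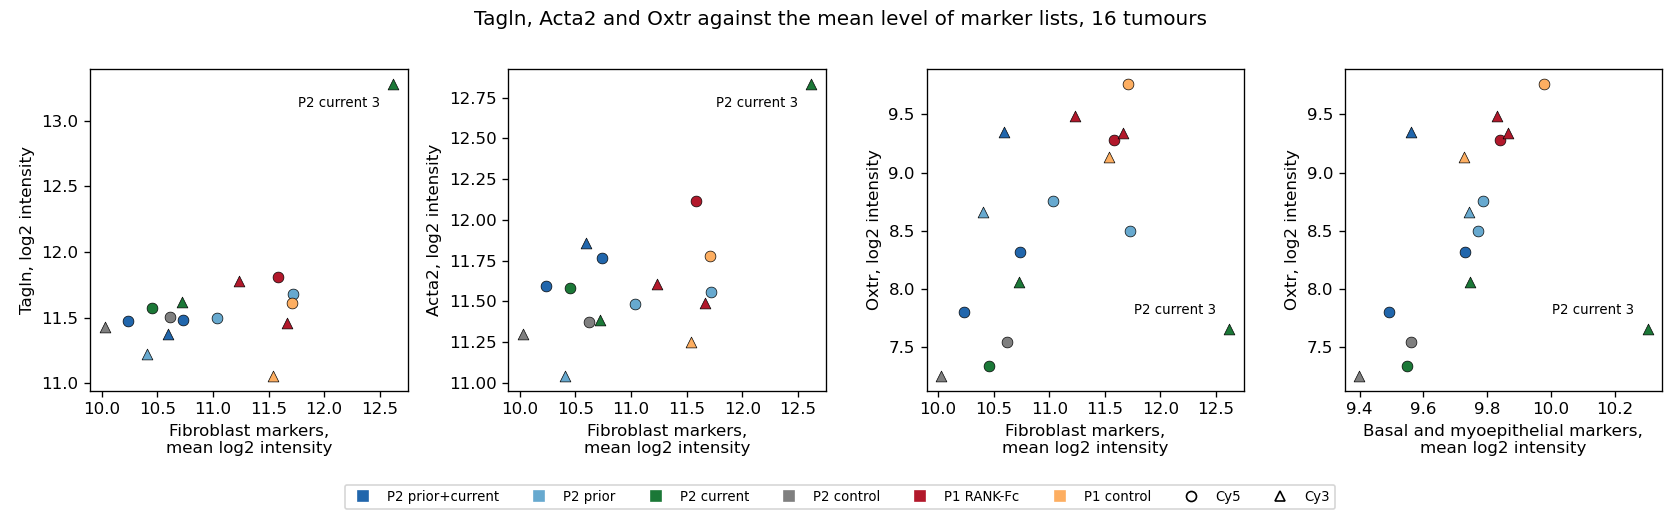
Tagln, Acta2 and Oxtr (log2 intensity) against the mean log2 intensity of fibroblast markers, and Oxtr against that of basal and myoepithelial markers, in the 16 tumours. The third P2 current tumour, at a fibroblast mean of 12.62, is highest for Tagln and Acta2 but has an Oxtr level of 7.66.

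The rest of the pathway was read from lists of related genes. Between passages, 4 of 19 tested genes of oxytocin signalling and calcium release passed, all lower in passage 2. Of all genes 7.72% passed as lower and 12% in either direction. The list median was -0.10. Rgs2, a regulator that speeds the turn-off of Gq, differed by -1.72 ± 0.44 (SE, limma, adjusted p = 0.0247), and Plcb4, a phospholipase C that Gq activates, by -1.08 ± 0.23 (0.0105). The calcium release channels Itpr3 and Itpr1 differed by -0.49 ± 0.10 (0.00937) and -0.29 ± 0.09 (0.0466). The highest of the list were Orai1, a plasma membrane calcium channel, at 0.50 ± 0.18 (0.0886), and Rhoa, at 0.04 ± 0.09 (0.818). Oxt, the hormone gene, was above background in 0 of 16 tumours and was not tested. With prior RANK-Fc none of the 19 passed, and in value 9 were higher and 10 lower, with a list median of -0.03. At an unadjusted p under 0.05 (limma) were 6 of the 19, 4 higher and 2 lower, beside 15.6% of all genes in either direction. Plcb4 at 0.91 ± 0.22 (limma, adjusted p = 0.0984) and Rgs2 at 0.68 ± 0.42 (0.459) were the 2 highest. The 2 lowest were Orai1 at -0.33 ± 0.17 (0.369) and Cd38 at -0.30 ± 0.12 (0.262).

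Of 16 further contractile genes 10 were higher and 6 lower in value in passage 2, with a list median of 0.05, against -0.002 over all genes. At an unadjusted p under 0.05 in limma 6 were higher and 3 lower, beside 11% and 15.6% of all genes. Past the adjusted threshold were 3, all lower in passage 2, beside 7.72% of all genes as lower and 12% in either direction. These were Itga8, an integrin of smooth muscle, at -0.90 ± 0.23 (SE, limma, adjusted p = 0.0247), Cald1, caldesmon, at -0.70 ± 0.17 (0.0170), and Smtn, smoothelin, at -0.61 ± 0.14 (0.0137). The highest were Actg2, the enteric smooth muscle actin, at 1.17 ± 0.49 (0.147), and Actn1, an actinin, at 0.62 ± 0.24 (0.120). With prior RANK-Fc none of the 16 passed, and in value 4 were higher and 12 lower, with a list median of -0.13. At an unadjusted p under 0.05 in limma 1 was higher and 1 lower, beside 15.6% of all genes in either direction. The 2 highest were Cald1 at 0.45 ± 0.16 (limma, adjusted p = 0.210) and Smtn at 0.285 ± 0.132 (0.324). Actg2 at -0.76 ± 0.465 (0.456) and Pdlim7 at -0.496 ± 0.19 (0.242) were the 2 lowest.

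Among regulators that act on smooth muscle genes with a CArG box, 2 of 6 tested genes passed between passages, both lower in passage 2, beside the same 7.72% of all genes. Hey1, a Notch target that represses myocardin activity in smooth muscle, differed by -2.27 ± 0.31 (SE, limma, adjusted p = 0.000807) and the cofactor gene Mrtfb by -0.39 ± 0.09 (0.0133). Srf itself differed by 0.25 ± 0.09 (0.107) and Mrtfa by 0.20 ± 0.12 (0.292). Myocd, the myocardin gene, was above background in 1 of 16 tumours.

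Basal and myoepithelial identity genes were mixed, with 1 of 27 higher and 5 lower in passage 2, beside 4.28% of all genes as higher and 7.72% as lower. Krt17, a basal keratin, rose by 1.27 ± 0.31 (SE, limma, adjusted p = 0.0195). Nrg1, an ERBB ligand gene made by basal cells, fell by 1.24 (difference -1.24 ± 0.23, adjusted p = 0.00465), and Itgb4, an integrin that anchors basal cells to laminin, had a difference of -0.88 ± 0.12 (0.000890). The other 3 lower genes, chosen for naming after their values were seen, were Egfr (-0.80 ± 0.20), Perp (-0.58 ± 0.12) and Fermt1 (-0.40 ± 0.10). Of pericyte markers 3 of 12 were higher in passage 2 and none lower, with Rgs4 at 0.58 ± 0.12 (adjusted p = 0.00949), and of luminal markers 2 of 10 were higher (Cldn4 and Elf5) and 1 lower (Kit, -1.02 ± 0.17). No gene of these lists passed in any of the 7 other comparisons.

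None of the 5 genes most like Oxtr over the 16 tumours was a member or on the lists. By Pearson's r over 16 tumours they were Sorl1 (0.94), Foxi1 (0.93), Atp5h (0.92), Cyb561 (0.92) and Tspan13 (0.92). Foxi1 had group means of 11.30 in P2 prior and current, 11.60 in P2 prior, 10.39 in P2 current and 10.51 in P2 control, against 12.85 in P1 RANK-Fc and 12.97 in P1 control. These genes were ranked on the same tumours, so their r is a description. The genes most like the mean of the 6 other members were Fmo1 (0.85), Mocs2 (0.82), Penk (0.82), Myl9 (0.82), the regulatory myosin light chain of smooth muscle, and Tacc1 (0.81). Of all genes 16.2% had r above 0.5 with Oxtr and 13.2% had r below -0.5. Of 16 further contractile genes 3 were above 0.5 (18.8%) and 5 below -0.5 (31.2%). Of 19 oxytocin signalling genes 5 were above (26.3%) and 1 below, and of 27 basal identity genes 7 were above (25.9%) and 2 below. Among the smaller lists, 3 of 7 adipocyte genes, 2 of 6 regulators acting with a CArG box, 3 of 10 luminal genes and 3 of 14 fibroblast genes were above 0.5, and 0, 1, 2 and 0 of them were below -0.5. Of 12 pericyte genes 1 was above and 6 were below, and of 10 endothelial genes 0 were above and 1 was below. Of 4 skeletal muscle genes 0 were on either side.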

How the data were processed

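RNA of 16 tumours was hybridised as 2 colours on 8 Agilent arrays. Agilent Feature Extraction (version 10.7.3.1 in the headers) read the spots. The deposited files hold linear spot intensity values and local background intensities, not normalised between arrays, per the file headers; processed intensities are corrected for background and dye, per the file headers. Other deposited columns are 0 or 1 quality marks, per the file headers. A deposited table with 8 columns that match no label was not used. Medians were corrected with normexp (offset 50), loess and Aquantile, giving log2 intensities; flagged outlier spots (239 to 337 per array) were left out. Probes were named through accessions and a RefSeq table (GRCm38.p6): 28026 of 55681 probes had a symbol. A probe passed where well above background (47.5% to 56.5% of spots) in every tumour of 1 group, and the brightest passing probe stood for a gene. No spot was saturated. The number of arrays limits the precision.

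The limma fit (limma 3.58.1, statmod 1.5.0, R 4.3.3) used 6 group means, dye and the intraspot correlation, corrected by simulation from 0.374 to 0.202, with 9 residual degrees of freedom; it was tested on simulated data. Where 1 spot was missing, the fit used the remaining tumours; no member was affected. Correlations used 100000 resamples (Python 3.11.15, scipy 1.17.1), two-sided, or exact enumeration for 8 tumours. All arrays shared 1 slide and 1 scan, so no batch could be modelled. Each tumour has its own code in the labels, read as its own animal, and p-values measure the spread between these tumours. Passage 2 tumours may share a passage 1 donor, which the labels do not give and the p-values do not take into account. The rule for naming genes was the 7 members, the 2 highest and 2 lowest of each list, and the 5 most alike. Not every list gene under this rule was named in each comparison, so both ends of a list are not always shown. Others named outside this rule (Itpr1, Itpr3, Smtn, Oxt, Myocd, Egfr, Perp, Fermt1) were chosen after their values were seen. Members and lists were chosen with earlier results of these data known. Alternatives changed background correction, normalisation, filter, probe choice, dye term, intraspot correlation and each tumour in turn.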

Additional observations from a re-analysis of the deposited data

How the results depend on the processing

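The fall of Oxtr between passages kept its direction and passed in all 9 other settings (-2.40 to -1.83) and without each of the 16 tumours (-2.08 to -1.65). With prior RANK-Fc, the number of members that passed was 0, but 1 (Oxtr) with Feature Extraction processed signals, with median-centred channels and with the intraspot correlation as limma estimates it, where Oxtr differed by 1.50, 1.08 and 1.01; leaving out tumours gave 0 to 1 members, with 1 without the first P2 current tumour (1.10) or the first P2 prior and current tumour (1.16), and Oxtr from 0.82 to 1.25. In the 6 other comparisons 0 members passed in limma under every setting and left-out tumour. The correlation of Oxtr with Cnn1 missed the threshold with no background subtraction (r = 0.615, adjusted permutation p = 0.0562) and in 10 of 16 cases with 1 tumour left out (0.566 to 0.699). That with Mylk passed with median centring (r = 0.604, adjusted permutation p = 0.0444). That with Tagln turned to 0.075 without the third P2 current tumour (range -0.295 to 0.075). The difference of Trp63 with prior RANK-Fc turned to 0.041 without the first P2 control tumour (-0.33 to 0.041); differences within 1 SE of 0 were taken to have no direction. The causes were not tested. Genes past the threshold with prior RANK-Fc numbered 49, against 10 with no dye term, 83 with median centring, 105 with the uncorrected correlation and 18 to 256 with 1 tumour left out. For P2 prior and current against P2 control the number was 10, against 0 to 18 (1 to 23 with 1 tumour left out), and for P2 prior 1, against 0 to 2 (0 to 6). Between passages it was 1695, against 1367 to 1713 (785 to 1950). For P1 RANK-Fc, P2 current and current RANK-Fc averaged it was 0, against 0 to 4 with 1 tumour left out, and for the interaction 0 to 3. Correlations with the dye effect removed, and of pairs without the third P2 current tumour, were added after the data were seen. No paired analysis was possible because replicate numbers follow the order of samples and link no tumours between groups.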
